A study of Schizosaccharomyces pombe with 6 samples.

Results

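The 36 gene copies of 5S ribosomal RNA of fission yeast, Schizosaccharomyces pombe, were followed in libraries of polyadenylated RNA. They are the rows of the deposited count table whose product begins with "5S rRNA", out of 6986 annotated features. Chromosome I carries 12 of them, chromosome II 16 and chromosome III 8. The label fitted the sequence of 34 copies, which held a shared sequence of 119 bases with few or no changes, while SPRRNA.54 and SPRRNA.41 could be aligned to it only with gaps or in part.

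The tested strain was STF19, which carries the seb1-G476S allele and rpb1-CTD-WT29 marked with KanMX (strain BS206), in 3 libraries. The wild type carried rpb1-CTD-WT29 marked with NatMX (strain AS785), also in 3 libraries, described as biological replicates and sequenced in the same run. Both strains were h+ and were taken in log phase from the rich medium YES at 30 °C during vegetative growth. Seb1 is an RNA-binding protein that acts in termination of transcription by RNA polymerase II. Rpb1 is the largest subunit of that polymerase, and the CTD is its repetitive tail. Each group is 1 strain, so the allele, the drug marker and any other difference between the strains cannot be told apart.

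Library totals ran from 21013941 to 27910803 counts. A count of 0 allows up to 3 counts, or 0.111 to 0.134 CPM (counts scaled to a common library size), which covers counting error only. The seb1 mRNA itself stood at 356.7 ± 14.1 CPM in seb1-G476S and 120.1 ± 12.3 CPM in wild type (SD, n = 3 each), and rose in edgeR's quasi-likelihood test (log2 fold change 1.57, SE 0.0769, adjusted p = 7.33e-07). A count per gene does not show the allele. Of the mating-type genes, map2, the P-factor precursor of h+ cells, stood at 5.22 CPM in seb1-G476S and 4.94 CPM in wild type, and map3, the M-factor receptor of h+ cells, at 65.3 CPM in seb1-G476S and 31.8 CPM in wild type. Of M cell genes, mat1-Mc had 0 counts in every library, but mam2, the P-factor receptor, stood at 24.7 CPM in seb1-G476S and 15.85 CPM in wild type, and the M-factor genes mfm1, mfm2 and mfm3 at 1.11 to 1.21 CPM in seb1-G476S and 0.612 to 1.44 CPM in wild type. The test called map3, mam2 and mfm1 higher, so these markers do not all go with the h+ label in either strain.

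5S RNA is the smallest RNA of the large ribosomal subunit. RNA polymerase III makes it from an internal promoter that the factor TFIIIA binds, and a run of T on the non-template strand ends transcription. The La protein holds the new RNA's uridine-rich end, and the ribosomal proteins of the L5 and L11 families carry it into the ribosome. Mature 5S RNA has no regular poly(A) tail, and in yeast a TRAMP-type poly(A) polymerase can tail such RNAs for decay by the nuclear exosome. The libraries were made by selecting polyadenylated RNA from whole cultures. More 5S transcript, more of it carrying a tail, and a change in part of the cells cannot be told apart in them.

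The copies are nearly identical, which bears on every value below, so the shared sequence is shown first. It is the whole annotated sequence of 6 copies, lies unchanged in 23 copies, and occurs 23 times in the genome counting both strands. Capitals mark the 12 positions at which any of the other 11 alignable copies differs. Sequences are RefSeq's, assembly ASM294v3, matched by identifier and written 5′ to 3′ on the strand of the gene.
shared core: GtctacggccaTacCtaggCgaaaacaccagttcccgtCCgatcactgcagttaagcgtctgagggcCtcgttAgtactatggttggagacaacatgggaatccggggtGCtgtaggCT

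Of those 11 copies, 7 differed from the core at 1 position. Counting from 1 at the first base of the core, with the core's base first, SPRRNA.04 and SPRRNA.05 carried C20T, SPRRNA.30 and SPRRNA.40 carried T12C, SPRRNA.18 carried T119C and SPRRNA.53 carried C68T. SPRRNA.12 carried G1A, C39T and C118T. A read that lies inside the core can match up to 23 places equally, and how the counting treated such reads is not given in the sources used here. The copies differ mainly outside the core, where annotated ends vary and annotated lengths run from 80 to 440 bases. Assignment of a count to 1 copy is therefore uncertain for the 34 copies that hold the core. SPRRNA.54 and SPRRNA.41 align to it only with gaps or in part, and how far they share reads with other copies was not tested.

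The copies on which the results turn are shown whole, with the core in capitals and the copy's own flanks in lower case. SPRRNA.33 had most counts in seb1-G476S, SPRRNA.03 had the largest fold change, SPRRNA.04 is the copy nearest to SPRRNA.03 in its flanks, and SPRRNA.27 was high in both strains. SPRRNA.03 and SPRRNA.04 share 138 identical bases before the core and 23 after it.
SPRRNA.33: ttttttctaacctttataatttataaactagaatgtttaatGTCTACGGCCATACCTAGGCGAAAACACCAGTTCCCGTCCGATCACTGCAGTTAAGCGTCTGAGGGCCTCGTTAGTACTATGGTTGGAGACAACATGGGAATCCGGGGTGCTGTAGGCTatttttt
SPRRNA.03: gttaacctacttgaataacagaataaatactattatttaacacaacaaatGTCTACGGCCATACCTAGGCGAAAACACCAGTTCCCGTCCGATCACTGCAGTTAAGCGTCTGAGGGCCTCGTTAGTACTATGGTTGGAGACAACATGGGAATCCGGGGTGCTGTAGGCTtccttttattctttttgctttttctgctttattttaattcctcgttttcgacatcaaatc
SPRRNA.04: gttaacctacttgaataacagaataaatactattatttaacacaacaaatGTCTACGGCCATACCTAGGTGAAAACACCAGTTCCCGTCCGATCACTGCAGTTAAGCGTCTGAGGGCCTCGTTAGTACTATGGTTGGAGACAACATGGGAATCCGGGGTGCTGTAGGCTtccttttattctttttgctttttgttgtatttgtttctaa
SPRRNA.27: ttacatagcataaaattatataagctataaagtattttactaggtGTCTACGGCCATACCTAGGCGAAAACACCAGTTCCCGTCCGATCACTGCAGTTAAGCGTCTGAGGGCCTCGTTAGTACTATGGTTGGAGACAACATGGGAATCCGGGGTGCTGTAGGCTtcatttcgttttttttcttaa

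SPRRNA.54, the only tested copy with a fold change below 0, is shown with capitals at each base that differs from the core in an alignment. Over aligned bases it matched the core at 89 and differed at 22 (80.2% identity). SPRRNA.41, annotated over 80 bases only, matched at 65 and differed at 9 (87.8% identity).
SPRRNA.54: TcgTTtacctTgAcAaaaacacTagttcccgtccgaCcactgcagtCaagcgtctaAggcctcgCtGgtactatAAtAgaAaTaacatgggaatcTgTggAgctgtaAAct

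Summed over all 36 copies, 5S counts were 610, 695 and 576 in the seb1-G476S libraries, against 279, 285 and 265 in the wild-type libraries. Each seb1-G476S library lay above each wild-type library, and the spread within each strain was small. The sums averaged 25.7 ± 0.774 CPM in seb1-G476S and 11.6 ± 0.475 CPM in wild type (SD, n = 3 each), a ratio of 2.21 or 1.14 on the log2 scale. The sum needs no choice between copies, but it leaves out reads that the counting may have discarded as ambiguous. No test was made of it. It rests on 2710 counts over the 6 libraries, a small part of each library. Without SPRRNA.33, an alternative chosen after seeing the data, the log2 ratio was 1.00.

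Other RNAs that lack a regular poly(A) tail did not all stand apart in the same way. Summed tRNA rows, 187 in all, held 78, 110 and 91 counts in seb1-G476S and 54, 42 and 59 in wild type. They too did not overlap, at 3.79 ± 0.375 CPM in seb1-G476S and 2.19 ± 0.509 CPM in wild type, a ratio of 1.73. The 53 snoRNA rows, guides of RNA modification, summed to 148.5 ± 6.67 CPM in seb1-G476S and 121.0 ± 2.56 CPM in wild type, a ratio of 1.23 without overlap. That gap lay in 1 row, snR93, at 31.5 ± 0.918 CPM in seb1-G476S and 0.438 ± 0.193 CPM in wild type. Without snR93, which was singled out after its values were seen, the snoRNA sums overlapped at a ratio of 0.971. The 11 rows of other nuclear rRNA summed to 9.33, 6.79 and 8.79 CPM in seb1-G476S, against 13.6, 7.31 and 5.56 CPM in wild type, so these groups overlapped. The 7 snRNA rows of the splicing machinery overlapped as well, at 7.34 ± 0.769 CPM in seb1-G476S and 7.72 ± 0.654 CPM in wild type. Both mitochondrial rRNA rows were at 0 throughout. Among these classes 5S had the highest ratio, and the difference between classes was not tested.

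**Figure D1:**
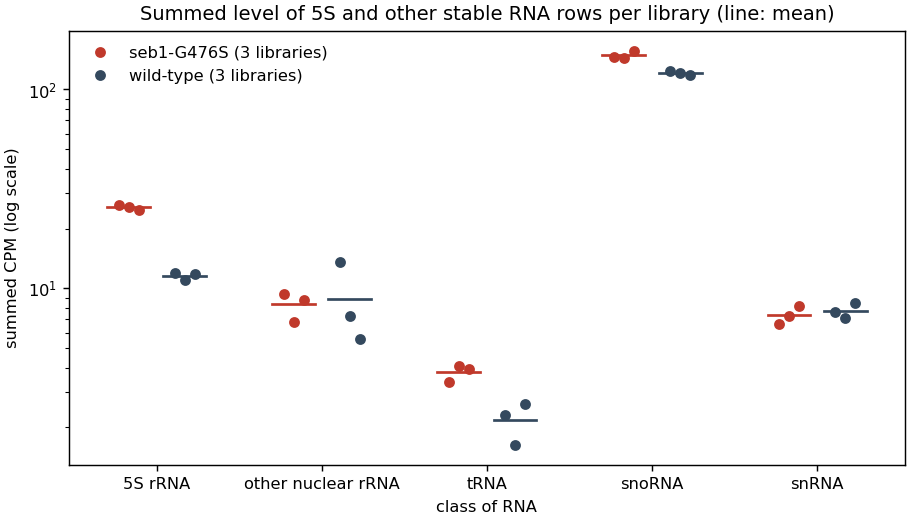
Summed CPM per library for 5S rRNA and the other stable RNA classes, on a log axis. Each point is 1 library and each line a mean of 3, with seb1-G476S left of wild type. 5S sums were 24.8 to 26.3 CPM in seb1-G476S and 11.07 to 11.97 CPM in wild type, while other nuclear rRNA and snRNA overlapped.

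A filter on low counts kept 17 of the 36 copies, and these held 92.1% of the 5S counts. Of the 17, 12 were called higher in seb1-G476S by edgeR's quasi-likelihood test at an adjusted p under 0.05, and 5 were not called. Over all 6046 features tested, 26.7% were called higher and 28.4% lower. No 5S copy was called lower by edgeR or by DESeq2 (0 each). At an unadjusted p under 0.05 in edgeR, 0 copies had a fold change below 0 and 13 had one above 0. The share of all features at that unadjusted threshold was not taken. In CPM the libraries of the strains did not overlap for 14 of the 17 copies, seb1-G476S being above, as in 31.3% of all tested features. The median log2 fold change was 1.11 over the 17 copies and -0.01 over all tested features. Tested features with a mean level in the copies' own range, 0.37 to 2.02 CPM, numbered 558. Of these 29.6% were called higher and their median log2 fold change was 0.30.

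The filter itself bears on these counts. It keeps a feature that reaches about 10 counts (0.415 CPM) in at least 3 libraries. The minimum was reached in all 6 libraries by 8 copies, and in every seb1-G476S library but not every wild-type library by 9. None of these 9 would have been kept on its wild-type libraries, and SPRRNA.03, SPRRNA.29, SPRRNA.30, SPRRNA.31 and SPRRNA.34 reached it in no wild-type library. The 8 calls among the 9 are therefore no support for a direction. The same limit holds for the part of these 9 in the other numbers given for the tested copies. Those are the count without overlap, the counts at an unadjusted p and the median fold change. Of the 8 copies at the minimum in every library, 4 were called higher. Without any filter 32 copies were tested and the same 12 were called higher, beside 24.8% of 6584 features. DESeq2 called 8 copies higher, all among the 12, beside 24.9% of 6201 features.

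**Figure D2:**
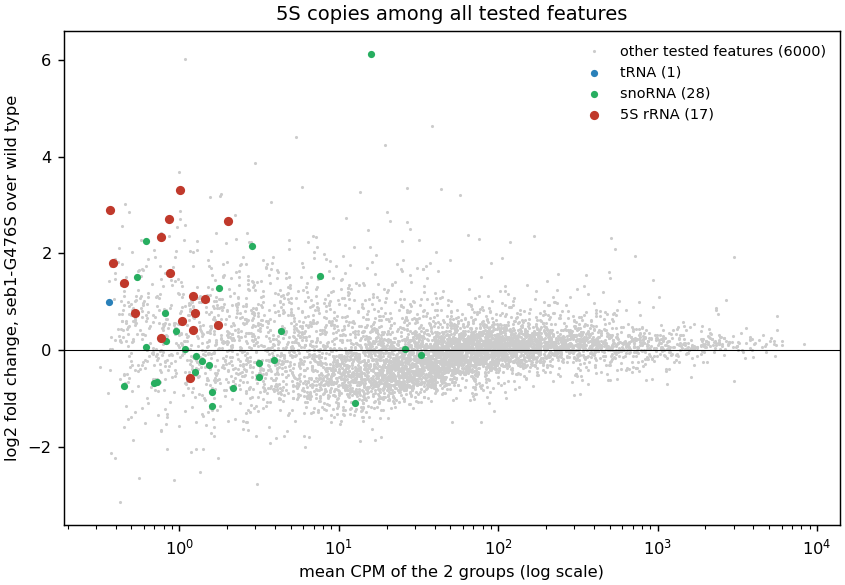
The log2 fold change of seb1-G476S over wild type against the mean CPM of both groups on a log axis, for all tested features. Each point is 1 feature, with 17 5S copies, 28 snoRNAs and 1 tRNA in colour. The 5S copies lie between 0.37 and 2.02 CPM and between log2 fold changes of -0.58 and 3.30. Of the 17, 9 were kept by the filter only through their seb1-G476S libraries.

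SPRRNA.33 was the most abundant copy in seb1-G476S. It held 93, 91 and 71 counts in the seb1-G476S libraries, against 17, 10 and 12 in the wild-type libraries, or 3.48 ± 0.487 CPM in seb1-G476S and 0.551 ± 0.171 CPM in wild type (SD, n = 3 each). The lowest seb1-G476S library was far above the highest wild-type one. It rose 6.32-fold (log2 fold change 2.66, SE 0.252, adjusted p = 4.57e-05 in edgeR's quasi-likelihood test). Its share of all 5S counts was 13.6% in seb1-G476S and 4.7% in wild type. Per kilobase of annotated length it had the highest level of the tested copies in seb1-G476S, 20.9 CPM per kb.

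SPRRNA.03 had the largest fold change of the tested copies. Its counts were 44, 48 and 43 in seb1-G476S, against 4, 3 and 6 in wild type, which is near the floor of 3 counts in wild type. It rose 9.87-fold (log2 fold change 3.30, SE 0.299, adjusted p = 3.47e-05 in edgeR's quasi-likelihood test). SPRRNA.04, whose upstream flank is the same over 138 bases, held 32, 31 and 33 counts in seb1-G476S and 13, 11 and 7 in wild type. It rose as well, by less (log2 fold change 1.59, SE 0.274, adjusted p = 0.00114 in the same test). Whether the fold changes of these copies differ was not tested. Both lie on the minus strand of chromosome III.

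SPRRNA.34 is annotated as exactly the core, with no flank of its own. It held 30, 44 and 36 counts in seb1-G476S, against 8, 4 and 4 in wild type, without overlap, and rose 6.56-fold (log2 fold change 2.71, SE 0.32, adjusted p = 0.000152 in edgeR's quasi-likelihood test). The other copies with that same annotated sequence were not called or were too low to test. SPRRNA.20 held 18, 25 and 18 counts in seb1-G476S and 14, 15 and 21 in wild type, which overlapped (log2 fold change 0.24, adjusted p = 0.472). SPRRNA.39 held 39, 29 and 33 counts in seb1-G476S and 28, 26 and 20 in wild type, which overlapped in CPM, and was not called (log2 fold change 0.42, adjusted p = 0.171). SPRRNA.28 held 2, 3 and 5 counts in seb1-G476S and 0, 0 and 3 in wild type. SPRRNA.17 held 2 counts in 1 seb1-G476S library and none elsewhere, and SPRRNA.10 was at 0 in all 6. A read that lies wholly within any of these 6 annotated sequences matches all of them. Their totals over the 6 libraries ran from 0 for SPRRNA.10 to 175 for SPRRNA.39. What part of the 5S counts comes from reads that reach into the flanks was not tested.

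Of the other copies short of the count minimum in wild type, SPRRNA.31 and SPRRNA.29 changed most. SPRRNA.31 held 23, 36 and 36 counts in seb1-G476S, against 6, 9 and 3 in wild type (log2 fold change 2.34, SE 0.35, adjusted p = 0.000522 in edgeR's quasi-likelihood test). For SPRRNA.29 the counts were 16, 18 and 14 in seb1-G476S, against 3, 1 and 2 in wild type (log2 fold change 2.89, SE 0.42, adjusted p = 0.000454). Neither copy's strains overlapped, and the wild-type libraries were at or near the floor for SPRRNA.29. SPRRNA.30 held 12, 16 and 16 counts in seb1-G476S, against 6, 1 and 5 in wild type (log2 fold change 1.80, SE 0.467, adjusted p = 0.00906). The T119C copy SPRRNA.18 held 13, 21 and 15 counts in seb1-G476S, against 3, 11 and 4 in wild type (log2 fold change 1.39, SE 0.415, adjusted p = 0.0174). Both of these rose too, the wild-type library nearest to seb1-G476S being the second for SPRRNA.18 and the first for SPRRNA.30. SPRRNA.36, with 23, 15 and 11 counts in seb1-G476S and 10, 12 and 6 in wild type, met between the strains in counts, stood just apart in CPM and was not called (log2 fold change 0.77, adjusted p = 0.11). The call of SPRRNA.18 was lost without seb1-G476S replicate 2 (adjusted p = 0.0679), without wild-type replicate 1 (0.0513) and with DESeq2 (0.0905), and that of SPRRNA.30 with DESeq2 (0.0518).

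**Figure D3:**
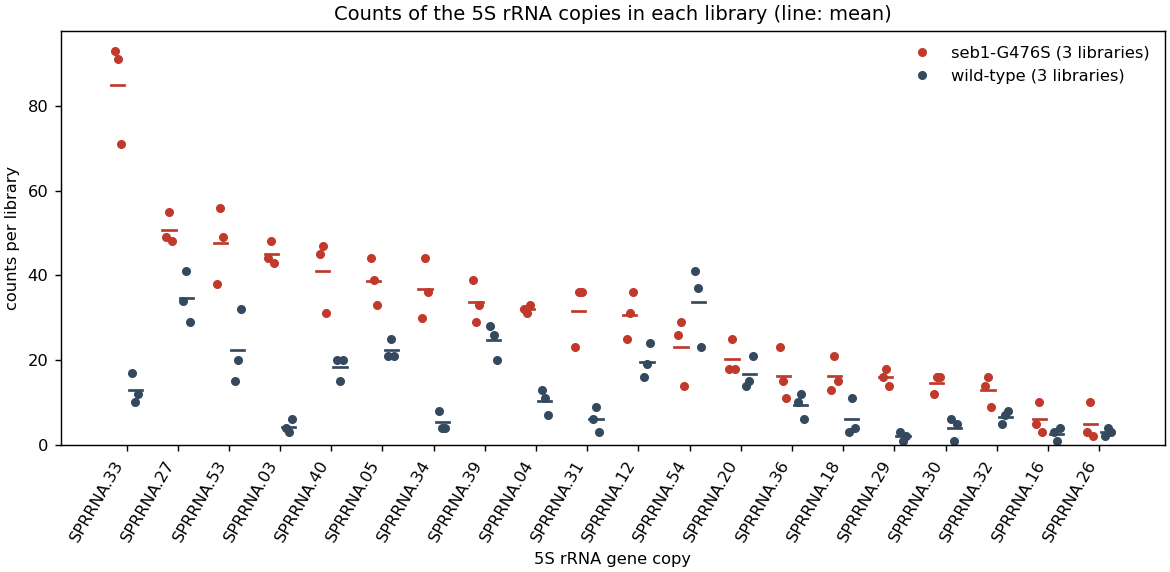
Counts per library of the 20 named copies, ordered by their mean in seb1-G476S. Each point is 1 library and each line a mean of 3, with seb1-G476S left of wild type. SPRRNA.33 reaches 71 to 93 counts in seb1-G476S and 10 to 17 in wild type, and SPRRNA.54 alone among the tested copies has its higher mean in wild type.

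The 8 copies at the count minimum in every library moved less. Their summed counts were 284, 311 and 262 in seb1-G476S, against 189, 198 and 190 in wild type, a ratio of 1.45 in CPM. The 9 copies short of the minimum in wild type summed to 286, 320 and 275 counts in seb1-G476S, against 70, 62 and 49 in wild type, a ratio of 4.75. Neither pair of sums overlapped. The division uses the wild-type counts themselves, so the gap between these ratios is in part fixed by it and was not tested. In seb1-G476S both sets stood at nearly the same summed level, 11.7 CPM for the 8 copies and 12.02 CPM for the 9, while in wild type they stood at 8.09 and 2.53 CPM.

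Of the 8, SPRRNA.40, SPRRNA.53, SPRRNA.05 and SPRRNA.27 rose. SPRRNA.40 held 45, 47 and 31 counts in seb1-G476S, against 20, 15 and 20 in wild type (log2 fold change 1.11, SE 0.255, adjusted p = 0.00493 in edgeR's quasi-likelihood test). SPRRNA.53, described as predicted in the product field, held 38, 56 and 49 counts in seb1-G476S, against 15, 20 and 32 in wild type (log2 fold change 1.05, SE 0.29, adjusted p = 0.0124). For both, every seb1-G476S library was above every wild-type one, by little for SPRRNA.53. SPRRNA.05 held 44, 39 and 33 counts in seb1-G476S, against 21, 25 and 21 in wild type (log2 fold change 0.76, SE 0.219, adjusted p = 0.0153). SPRRNA.27, the copy with the highest mean CPM in wild type, held 49, 55 and 48 counts in seb1-G476S, against 34, 41 and 29 in wild type (log2 fold change 0.51, SE 0.184, adjusted p = 0.0379). The call of SPRRNA.27 was lost in 9 of 11 alternative analyses, with adjusted p up to 0.189. SPRRNA.05 lost its call without seb1-G476S replicate 1 (0.0621) and with DESeq2 (0.101), and SPRRNA.53 without wild-type replicate 2 (0.0534).

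SPRRNA.12 and SPRRNA.54 were not called. SPRRNA.12, with 3 changes in its core, held 25, 31 and 36 counts in seb1-G476S, against 16, 19 and 24 in wild type (log2 fold change 0.60, SE 0.265, adjusted p = 0.0783 in edgeR's quasi-likelihood test). SPRRNA.54 had its higher mean in wild type, with 26, 29 and 14 counts in seb1-G476S, against 41, 37 and 23 in wild type (log2 fold change -0.58, SE 0.296, adjusted p = 0.118). Its strains overlapped, since the highest seb1-G476S count was above the lowest wild-type count. Without wild-type replicate 3, SPRRNA.54 was called lower (adjusted p = 0.0373) and SPRRNA.12 higher (0.0312). Per kilobase it had the highest level of the tested copies in wild type, 12.7 CPM per kb.

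**Figure D4:**
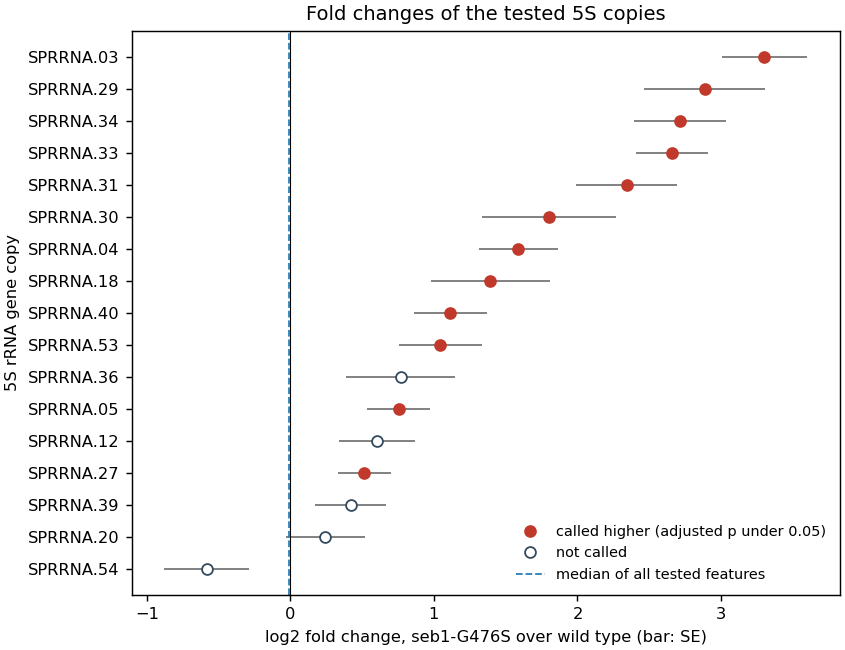
Log2 fold change of seb1-G476S over wild type for the 17 tested copies, with bars of 1 standard error. Filled points were called higher at an adjusted p under 0.05, open points were not called, and the dashed line is the median of all tested features at -0.01. The copies run from -0.58 for SPRRNA.54 to 3.30 for SPRRNA.03.

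The remaining 19 copies were too low to test. Together they held 143 counts in the seb1-G476S libraries and 71 in the wild-type libraries. SPRRNA.32, with the longest annotation, held 14, 16 and 9 counts in seb1-G476S, against 5, 7 and 8 in wild type, without overlap. SPRRNA.16 held 5, 10 and 3 counts in seb1-G476S and 3, 1 and 4 in wild type, and SPRRNA.26 held 3, 10 and 2 in seb1-G476S and 2, 4 and 3 in wild type. These overlapped, 1 seb1-G476S library standing out in each. SPRRNA.07, SPRRNA.10, SPRRNA.15 and SPRRNA.35 were at 0 in all 6 libraries, which allows up to 0.134 CPM, and the other 12 held at most 6 counts in a library. Counting all 36 copies, 29 had a higher mean in seb1-G476S and 3 a lower one. Of the 29, 13 were among the untested copies, which held at most 16 counts in a library. The share of all features with a higher mean was not taken, so these numbers are no support for a direction.

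Calls were found both with and without changes in the core. Of the 23 copies with the exact core 9 were tested and 6 called higher, and of the 13 others 8 were tested and 6 called higher. By chromosome, 2 of 4 tested copies were called higher on chromosome I, 7 of 10 on chromosome II and 3 of 3 on chromosome III. The difference between these shares was not tested. The share called higher over all tested features was 26.7%. Calls of copies short of the count minimum in wild type are included here, with the filter limit given above.

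The flanks held the letters known from RNA polymerase III genes of fission yeast. TATA stood within the 60 bases before the core of 27 of 34 copies (79.4%), and within the same window before 36.9% of 12643 annotated genes. TTTTT stood within the 60 bases after the core of 32 copies (94.1%), and after 25.99% of 12642 genes. The strand of the gene was searched, TATA being its own reverse complement, and the windows do not overlap. SPRRNA.03, SPRRNA.04, SPRRNA.12, SPRRNA.13, SPRRNA.31, SPRRNA.34 and SPRRNA.55 lacked TATA in that window. Of these 7, 5 were tested and 4 called higher, with log2 fold changes of 0.60 to 3.30. Of the 27 with TATA, 11 were tested and 8 called higher, with log2 fold changes of 0.24 to 2.89. Beside these counts stands a share of 26.7% called higher over all tested features. All 4 called copies without TATA fell short of the count minimum in a wild-type library, as did some of the 8 with it. The filter limit given above applies to them.

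Transcripts that run on from a neighbour on the same strand would be counted in a copy, so the features next to the 20 named copies were read from the same fit. None of the 36 copies overlaps another annotated gene. The named copies had 20 neighbours on the same strand, next to 15 of them. Of the 10 that lie upstream, and so could run on into a copy, 2 were lower, 2 not called and 6 too low to test. Of the 10 that lie downstream, 2 were higher, 1 lower, 4 not called and 3 not tested. The downstream ones include the genes after the rising copies SPRRNA.33 and SPRRNA.31, which are shy1 (67.7 ± 2.55 CPM in seb1-G476S, 54.7 ± 3.88 CPM in wild type, log2 fold change 0.31, adjusted p = 0.00622 in edgeR's quasi-likelihood test) and gyp1 (log2 fold change 0.20, adjusted p = 0.0156). SPRRNA.29 rose between 2 same-strand genes that fell, rlp1 upstream (log2 fold change -0.80, adjusted p = 0.00287) and SPBC1685.17 downstream (log2 fold change -1.39, adjusted p = 0.000104). The untested SPRRNA.16 lies after noc201, which fell (log2 fold change -0.35, adjusted p = 0.0166).

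Same-strand neighbours that were not called were SPCC11E10.09c after SPRRNA.04, dph4 and hsp90 on either side of SPRRNA.18, dal2 before SPRRNA.20, maa1 after SPRRNA.27 and zuo1 after SPRRNA.54. The chaperone gene hsp90 stood at 4851 CPM in seb1-G476S and 4607 CPM in wild type, so the few counts of SPRRNA.18 lie beside a very abundant transcript. Before SPRRNA.40 lies the long non-coding fnx1-antisense-1, at 0.639 ± 0.25 CPM in seb1-G476S and 0.141 ± 0.0325 CPM in wild type, which was not tested. The other 8 untested same-strand neighbours were the tRNA genes sup9, SPCTRNAARG.09, SPBTRNAGLY.06, SPBTRNATHR.06, SPBTRNAASP.04 and SPBTRNAASN.02 and the non-coding SPNCRNA.327 and SPNCRNA.475, each at or under 0.134 CPM in both strains. SPRRNA.03, SPRRNA.12, SPRRNA.32, SPRRNA.34 and SPRRNA.53 had no same-strand neighbour. Of these, SPRRNA.03, SPRRNA.34 and SPRRNA.53 were called higher, beside 26.7% of all tested features. SPRRNA.03 and SPRRNA.34 reached the count minimum in no wild-type library, so the filter limit given above applies to them. The strand option of the counting is not given in the sources used here, and the 20 neighbours on the opposite strand are not described. The part of neighbouring transcripts of either strand in the 5S counts was not tested.

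Of the other stable RNA classes, the filter kept 1 of 187 tRNA rows, 5 of 11 rows of other nuclear rRNA, 28 of 53 snoRNA rows and 5 of 7 snRNA rows. The 1 tested tRNA, SPBTRNAASN.04, held 10, 12 and 13 counts in seb1-G476S, against 4, 4 and 9 in wild type. Its strains did not overlap, and edgeR did not call it (log2 fold change 0.99, adjusted p = 0.0655), while DESeq2 did. Of 5 tested rows of other nuclear rRNA, 0 were called in either direction by edgeR, 0 had an unadjusted p under 0.05, and DESeq2 called 0. Of 28 tested snoRNAs, 7 were higher and 5 lower, around a median log2 fold change of -0.11. Of 5 tested snRNAs, 1 was higher and 1 lower. Over all tested features 26.7% were higher and 28.4% lower, and the snoRNA counts are near those shares.

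Of 27 tested genes for RNA polymerase III and its factors, 17 fell and 5 rose, or 3 with scaling by library totals, beside 28.4% lower and 26.7% higher over all tested features. The number that fell was 12 to 18 in the other analyses, 12 without seb1-G476S replicate 2. The median log2 fold change was -0.30. The mRNA of sfc2, the TFIIIA that binds 5S genes, stood at 12.58 ± 1.85 CPM in seb1-G476S and 24.97 ± 5.002 CPM in wild type (log2 fold change -0.99, SE 0.167, adjusted p = 0.00101 in edgeR's quasi-likelihood test). Also lower were rpc17, a polymerase subunit, and bdp1, of the initiation factor TFIIIB (log2 fold change -1.002 each). The TFIIIC genes sfc1 and sfc3 fell (log2 fold changes -0.70 and -0.65), and so did the subunit gene rpc10 (-0.69). Among the 5 that rose were tbp1, the TATA-binding protein (0.45), and maf1, a repressor of the polymerase (0.36). Gene sfc7 had no counts.

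Genes for proteins that bind or carry 5S RNA were mixed, and sfc2 is counted here as well. Of 8 tested, 3 fell and 1 rose, with a median log2 fold change of -0.13, beside 28.4% lower and 26.7% higher over all tested features. The mRNA of sla1, the La protein, stood at 99.3 ± 5.78 CPM in seb1-G476S and 169.5 ± 35.6 CPM in wild type (log2 fold change -0.77, SE 0.126, adjusted p = 0.00085 in edgeR's quasi-likelihood test). With sfc2, the assembly factor gene rrs1 also fell (-0.32, adjusted p = 0.00312). One L11 gene, rpl1102, was called higher (0.22, adjusted p = 0.0371), although its strains overlapped. The list had 0 genes higher with scaling by library totals and in 4 of 6 fits with 1 library left out (wild-type replicate 2 or 3, seb1-G476S replicate 1 or 2). The other L11 gene rpl1101 (-0.01), the L5 genes rpl501 (0.15) and rpl502 (0.09), and rpf2 (-0.25) were not called.

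Genes of polyadenylation-linked nuclear decay fell for the most part. Of 19 tested, 15 fell and 1 rose, beside 28.4% lower and 26.7% higher over all tested features. Their median log2 fold change was -0.56. Cid14, the poly(A) polymerase of the TRAMP complex, had its mRNA at 35.8 ± 3.23 CPM in seb1-G476S and 58.1 ± 11.03 CPM in wild type (log2 fold change -0.70, SE 0.13, adjusted p = 0.00171 in edgeR's quasi-likelihood test). The strains did not overlap. Its partners air1 (-0.71) and mtr4 (-0.76) fell too, as did the exosome genes rrp4 (-0.97), csl4 (-0.69) and the exosome cofactor gene mpp6 (-1.31). The gene that rose was pab2, the nuclear poly(A)-binding protein (0.17, adjusted p = 0.0296). That call was lost with scaling by library totals and in 4 of 6 fits with 1 library left out (any seb1-G476S replicate, or wild-type replicate 1). These are mRNA levels beside the 5S values, and the part of any of them in the 5S result was not tested.

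At an adjusted p under 0.05, the authors' deposited table has 11 copies higher and 0 lower, beside 24.4% of 6678 features called higher. All 11 were among the 12 above. SPRRNA.27 was the one left out, at a log2 fold change of 0.55 and an adjusted p of 0.119 in the authors' deposited table. For SPRRNA.33 the authors' deposited table gives averages of 82.9 in seb1-G476S and 12.8 in wild type, in counts divided by size factors, and a log2 fold change of 2.71. Its overall mean for SPRRNA.20, 26.2, lies above both group averages, 19.7 in seb1-G476S and 16.3 in wild type. For SPRRNA.40 the overall mean is likewise above both. Whether the authors' fit used these 6 libraries alone was not settled here.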

How the data were processed

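RNA of 3 seb1-G476S and 3 wild-type cultures was extracted with hot acid phenol. Paired-end NovaSeq libraries of its polyadenylated part came from a TruSeq kit that keeps strand, per the labels' protocols. The authors deposited raw counts per annotated feature, per the file headers. Build ASM294v2, the aligner HISAT2 2.1.0, the counter HTSeq 0.10.0, and SAMtools and DESeq2 are named in the submitters' processing notes. The strand option and the handling of reads that match several copies are not given in the sources used here, and either could move counts between copies or remove them. A second deposited table gives the authors' group averages, a signal of counts divided by size factors, log2 fold changes, a test score, and p-values, per the file headers. Its fold changes had the sign of its own group averages, seb1-G476S over wild type, for 99.72% of 6469 features.

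Of 6987 rows, 1 identifier stood on 2 rows, which were summed. The test was edgeR 4.0.16 (R 4.3.3), the two-sided quasi-likelihood test with TMM scaling, after filterByExpr at 10 counts (0.415 CPM), with 4 residual degrees of freedom. Benjamini-Hochberg adjustment ran over all 6046 features kept. CPM values use TMM library sizes. Alternatives were other scalings, no filter, DESeq2 1.42.0, a replicate block and leaving out each library. No pair of libraries agreed within sampling noise (lowest chi-square per degree of freedom 3.81). Sequences, strands and neighbours came from RefSeq ASM294v3, which is not the authors' build, so features were matched by identifier (6833 of 6986, and all 36 copies) and no coordinates are given. The members and gene lists were chosen with earlier results of these data known. Copies were named if tested or if they held at least 10 counts in a library. Neighbours were named if on the same strand as a named copy. Of each list, up to 6 called genes by size of change were named, with sfc2, sla1 and cid14 whatever their values. The remaining genes of the list of 5S-binding proteins, and tbp1, maf1 and pab2, were named after their values were seen.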

Additional observations from a re-analysis of the deposited data

How the results depend on the processing

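Over the 11 other analyses, 169 of 187 values of single copies kept their direction and their side of the threshold, 16 lost the call, 2 gained one and 0 reversed. SPRRNA.03, SPRRNA.04, SPRRNA.29, SPRRNA.31, SPRRNA.33, SPRRNA.34 and SPRRNA.40 stayed called in every alternative. Only SPRRNA.40 among them reached the count minimum in every wild-type library. The others were kept through their seb1-G476S libraries, so their calls remain no support for a direction. SPRRNA.27 lost its call in 9 of the 11, and SPRRNA.05, SPRRNA.18, SPRRNA.30 and SPRRNA.53 in 1 to 3 each, as given above. Copies called higher numbered 12 with the main analysis, 11 with scaling by library totals or the replicate block, 8 with DESeq2, and 10 to 13 with 1 library left out. Copies called lower numbered 0 to 1 with 1 library left out. Scaling by library totals moved the median of all tested features by -0.118 on the log2 scale and gave 1148 features higher and 2287 lower, against 1613 and 1715. It moved the log2 ratio of the 5S sum to 1.02, a shift of about that size. With 1 library left out that ratio was 1.11 to 1.17. Further values, chosen after seeing the data, were 1.00 without SPRRNA.33, 1.30 without the 3 copies described as predicted, and 0.53 over the 8 copies at the count minimum in every library. The RNA polymerase III list had 3 genes higher with library totals. The list of 5S-binding proteins had 1 higher in the main analysis, 2 with relative log expression scaling or DESeq2, 0 with library totals, 3 with the replicate block and 0 to 2 with 1 library left out. The decay list had 0 higher with library totals and 0 to 1 with 1 library left out. The causes of these changes were not tested. With the replicate number as a block, calls over all features were 1877 higher and 2029 lower. The main analysis was planned without taking the numbers as pairs. Deviations of same-numbered libraries correlated at 0.357, 0.0585 and 0.263, and 2 of 3 seb1-G476S libraries correlated best with their own number. Whether the numbers are pairs is therefore not settled. The counts per copy, mostly under 50 per library, limit what can be seen of the lower copies.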
